A study of Homo sapiens with 6 samples.

Results

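Genes of the actin cytoskeleton, with the transcription factor SRF, its cofactors and a few targets of the coactivator YAP, were followed in THP-1 cells treated with mebendazole. The set holds 45 genes named by symbol, and all 45 were found among the 23710 symbols of the deposited count table. THP-1 is a human monocytic leukaemia line grown in suspension, and mebendazole is a benzimidazole drug that binds tubulin and blocks its assembly into microtubules. One group received 10 uM mebendazole for 6 h and the other the vehicle DMSO for the same 6 h, with 3 libraries per group in 3 numbered pairs. Both groups are 1 cell line grown in RPMI medium with fetal bovine serum, penicillin and streptomycin, and total RNA was measured by sequencing of TruSeq libraries.

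Actin is a globular protein that assembles into filaments. Cofilin, profilin, thymosins, capping protein and coronins set how fast filaments turn over, whereas alpha-actinin, filamin, vinculin, talin and zyxin crosslink them or tie them to adhesions. Tropomyosins coat the filaments, and non-muscle myosin pulls on them. Free actin monomers hold the MRTF cofactors, listed here under their older names MKL1 and MKL2, in the cytoplasm. When monomers are used up, MRTF enters the nucleus and activates, with SRF, genes that carry CArG boxes, among them actin genes themselves. YAP, held back by the LATS kinases of the Hippo pathway, acts with TEAD factors on genes such as CTGF and CYR61, and responds to cell tension.

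Library totals ranged from 13420558 to 15727667 counts, and Spearman correlations within a group were 0.997 or higher. Of 12 monocytic marker genes, all were detected, with summed levels of 4072 to 4390 CPM in DMSO and 4126 to 4312 CPM with mebendazole (CPM is counts per 1e6 reads after TMM scaling). That sum hides changes of single markers, of which 4 were called higher and 6 lower, 2 of these at least 2-fold, with a median log2 fold change of -0.37. The calls were 83.3% of the 12 markers, near the 82.3% of all genes tested, and 14.8% of all genes were at least 2-fold lower. These counts are therefore no result about monocytic markers in particular. Of 10 markers of fibroblasts and smooth muscle, 3 could be tested, COL1A2 had no read, and the list summed to 3.23 to 5.39 CPM in DMSO and 4.56 to 5.31 CPM with mebendazole. Of 10 epithelial and endothelial markers, 4 could be tested, and their sum rested mostly on PECAM1, which monocytes also express (91.8 to 103.5 CPM in DMSO, 126.0 to 149.5 CPM with mebendazole). Less RNA of a gene in every cell and fewer cells that carry it cannot be told apart in such bulk libraries.

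Across the set, more genes were higher than lower with mebendazole. Of the 45 genes, 44 could be tested, 32 were called higher, 10 lower and 2 did not pass (edgeR quasi-likelihood test, adjusted p under 0.05). A call by itself says little here, because 82.3% of all 13591 genes tested were called, 40.6% higher and 41.7% lower. The median log2 fold change of the 44 was 0.45, against -0.03 over all genes tested. A change of at least 2-fold was found for 12 of the 44, against 30.4% of all genes, with 11 upward (all genes 15.5%) and 1 downward (all genes 14.8%). In a test against a 1.5-fold change, 22 of the 44 passed, 17 higher and 5 lower, beside 42.5% of all genes. Libraries of the 2 groups did not overlap for 28 higher and 10 lower genes, and overlapped for 6, beside 82.4% of all genes with no overlap. CYR61, CTGF and CNN1 passed the filter on low counts only through the mebendazole libraries, so they had to differ, and the counts above include them. With library totals in place of TMM scaling the median gene shifted by -0.24, and the split became 26 higher and 14 lower.

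**Figure D1:**
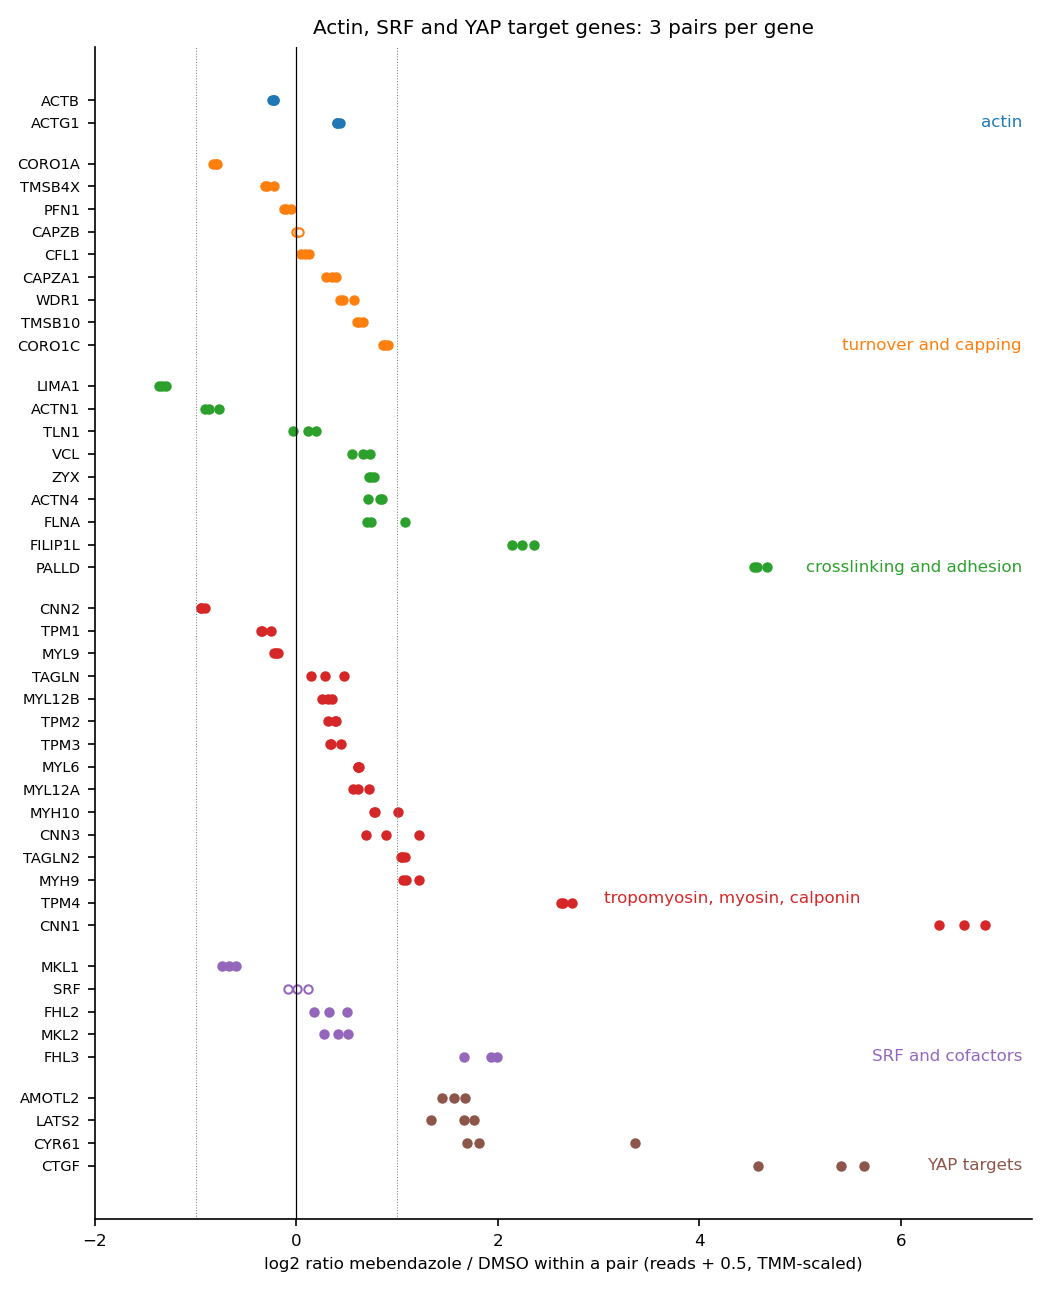
Each row is 1 of the 44 tested genes, and the 3 points are the log2 ratios of mebendazole to DMSO within the 3 pairs, filled where the gene passed the test and open where it did not. Dotted lines mark a 2-fold change, the points of CNN1 depend on the added 0.5 read because DMSO had none, and most genes lie within the dotted lines while TPM4, PALLD, CTGF and CNN1 lie far to the right.

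Most set members that changed at least 2-fold were genes of low or middle level. Of 27 set members with a mean of 100 CPM or more, 3 changed at least 2-fold, or 11.1%, against 23.6% of the 2351 genes of that level. Of the 12 between 10 and 100 CPM, 6 did, or 50%, against 24.2% of 7151 genes. The 6 include CTGF, which passed the filter on low counts only through its mebendazole libraries and so had to differ. The level is a mean over both groups, and CTGF and PALLD exceeded 10 CPM only with mebendazole. The 50% is therefore no support for a larger response of the set. The set as a whole took 2.43% to 2.53% of all reads in DMSO and 2.43% to 2.52% with mebendazole, with overlapping libraries. Without ACTB and ACTG1, the share was 1.22% to 1.24% in DMSO and 1.40% to 1.44% with mebendazole, with no overlap between groups.

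SRF itself, the factor that binds CArG boxes, did not pass the test. It stood at 167, 158 and 149 CPM in the DMSO libraries and at 157, 158 and 161 CPM with mebendazole. These groups overlapped, with a log2 fold change of 0.01 (SE 0.06 over the 3 pairs, adjusted p = 0.80 in edgeR). With library totals, SRF was called lower at -0.23. MKL1, which encodes MRTF-A, the actin-sensing cofactor, was at 152, 134 and 134 CPM in DMSO and at 91.1, 84.3 and 88.3 CPM with mebendazole. Every mebendazole library lay below every DMSO library, and MKL1 fell by 0.67 on the log2 scale (SE 0.04, adjusted p = 6.3e-23). MKL2, which encodes the related MRTF-B, was lower in level and moved the other way, from 11.6, 11.4 and 11.2 CPM to 15.4, 13.8 and 16.1 CPM. Its log2 fold change was 0.40 (SE 0.07, adjusted p = 9.2e-05), and the call was lost with library totals (0.16, adjusted p = 0.11).

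The LIM-domain genes FHL2 and FHL3 encode cofactors that also bind integrins and actin structures. FHL3 stood at 13.5, 15.5 and 13.6 CPM in DMSO and at 51.8, 49.3 and 54.2 CPM with mebendazole. The groups did not overlap, and FHL3 rose 3.65-fold (log2 fold change 1.87, SE 0.10, adjusted p = 4.1e-35). FHL2, an SRF target, was at 9.16 ± 0.79 CPM and 11.6 ± 1.39 CPM (SD, n = 3), with overlapping libraries. FHL2 was called higher by edgeR (0.33, adjusted p = 0.0034) but not by DESeq2 (adjusted p = 0.075) or with library totals (0.09, adjusted p = 0.43).

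To show what SRF and TEAD could read near these genes, promoter windows from RefSeq (GRCh38.p14) were searched. Each holds 250 bases before and 50 after an annotated start. CArG boxes were taken strictly as CC, then 6 bases of A or T, then GG, a pattern sought on both strands alike. Near matches, as in an ACTA2 window, were not counted. The TEAD motif GGAATG was sought on both strands. Windows were found for 41 of the 45 genes, and not for ACTB, CYR61, TAGLN and MYL9. CArG boxes stood in 10 of the 73 windows, or 13.7%, against 1.29% of all 35116 windows. Overlapping FHL2 windows that hold the same box were counted separately. The boxes belonged to 8 genes, ACTG1, ACTN1, CNN2, FHL2, FILIP1L, FLNA, SRF and TPM4. The set was chosen partly as SRF targets, so the 13.7% is no independent finding. The TEAD motif stood in 21.9% of the set's windows, in 16 genes, against 14.0% of all windows. Of the 8 genes with a CArG box, 5 were called higher, ACTN1 and CNN2 lower, and SRF did not pass. Of the other 33 with a window, 25 were higher, 6 lower, 1 did not pass and 1 was not tested. Of all genes tested, 40.6% were called higher and 41.7% lower. The 25 include CNN1 and CTGF, which passed the filter on low counts only through their mebendazole libraries and so had to be higher. A match describes letters only, and which start THP-1 cells use was not measured.

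The 250 bases before the start are shown for 1 of the SRF promoters, which carries 2 CArG boxes that begin 30 and 10 bases before that start, for 3 genes with a CArG box that were higher, for CNN2, which was lower with one, and for the CTGF promoter with its 3 TEAD motifs. Capitals mark CArG boxes and TEAD motifs, each strand is written 5′ to 3′ toward the start, and the coordinates are those of GRCh38.p14.
SRF (chr6:43171019-43171268, plus strand): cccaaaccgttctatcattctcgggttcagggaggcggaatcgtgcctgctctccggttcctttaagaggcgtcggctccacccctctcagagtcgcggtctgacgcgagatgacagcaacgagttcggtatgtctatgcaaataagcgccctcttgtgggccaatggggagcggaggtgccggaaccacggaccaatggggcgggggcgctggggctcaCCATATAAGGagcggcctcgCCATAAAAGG
ACTG1 (chr17:81512800-81513049, minus strand): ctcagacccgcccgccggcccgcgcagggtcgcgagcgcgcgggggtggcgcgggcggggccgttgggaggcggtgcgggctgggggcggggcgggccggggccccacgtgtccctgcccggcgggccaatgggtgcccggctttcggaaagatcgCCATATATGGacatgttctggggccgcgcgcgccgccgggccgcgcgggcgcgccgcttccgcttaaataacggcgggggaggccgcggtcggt
TPM4 (chr19:16067288-16067537, plus strand): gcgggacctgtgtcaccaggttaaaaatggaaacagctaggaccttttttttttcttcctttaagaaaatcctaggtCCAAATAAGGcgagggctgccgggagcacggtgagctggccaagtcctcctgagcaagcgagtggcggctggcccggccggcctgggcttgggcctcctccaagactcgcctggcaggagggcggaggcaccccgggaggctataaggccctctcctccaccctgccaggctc
FILIP1L (chr3:99876174-99876423, minus strand): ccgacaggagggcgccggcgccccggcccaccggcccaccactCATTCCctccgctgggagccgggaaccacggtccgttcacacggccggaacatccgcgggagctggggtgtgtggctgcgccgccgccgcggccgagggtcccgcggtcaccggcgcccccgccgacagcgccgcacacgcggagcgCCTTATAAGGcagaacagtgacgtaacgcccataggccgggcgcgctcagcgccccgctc
CNN2 (chr19:1026358-1026607, plus strand): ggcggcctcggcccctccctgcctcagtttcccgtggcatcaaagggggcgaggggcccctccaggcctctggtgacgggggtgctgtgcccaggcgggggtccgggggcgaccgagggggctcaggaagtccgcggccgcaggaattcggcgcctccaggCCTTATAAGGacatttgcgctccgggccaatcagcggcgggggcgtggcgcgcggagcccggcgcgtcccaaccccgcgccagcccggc
CTGF (chr6:131951373-131951622, minus strand): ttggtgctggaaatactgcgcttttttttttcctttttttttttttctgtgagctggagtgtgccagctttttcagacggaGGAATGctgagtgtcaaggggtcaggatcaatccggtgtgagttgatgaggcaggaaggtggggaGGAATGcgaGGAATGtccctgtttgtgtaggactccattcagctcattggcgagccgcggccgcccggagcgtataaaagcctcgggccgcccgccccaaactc
The windows shown are those that hold a match. RefSeq lists 3 windows for TPM4, 2 for FILIP1L and 2 for SRF, and the others of these genes hold neither motif. The box of ACTG1 begins 94 bases before the start of its window's transcript, that of TPM4 173, that of FILIP1L 60 and that of CNN2 89. FILIP1L has a TEAD motif as well, 207 bases before the start. In CTGF the TEAD motifs begin 169, 104 and 95 bases before the start.

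The 4 YAP targets of the set were higher at least 2-fold, from low levels, beside 15.5% of all genes tested. CTGF and CYR61 were kept by the filter on low counts only because of their mebendazole libraries, so they had to come out higher, and their p-values and the count of 4 are no support. CTGF, a secreted matricellular protein now named CCN2, stood at 0.526, 0.746 and 0.353 CPM in DMSO and at 23.6, 18.6 and 18.9 CPM with mebendazole. It had 25 reads in the 3 DMSO libraries and 816 in the 3 mebendazole libraries, a ratio of 38.5 (95% counting interval 25.9 to 59.8), and its log2 fold change was 5.23 (SE 0.32, adjusted p = 4.8e-38). The mebendazole libraries were all far above the DMSO libraries. CYR61, its relative now named CCN1, stood at 0.592, 0.610 and 0.235 CPM and at 1.98, 2.22 and 2.68 CPM. Its ratio was 4.88 (3.03 to 8.16) on 22 and 91 reads, with no overlap between groups (adjusted p = 4.9e-09). Counting intervals cover counting error only.

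LATS2 encodes a Hippo kinase that restrains YAP and is itself a YAP target. It was at 11.0, 13.2 and 10.8 CPM in DMSO and at 34.9, 33.2 and 36.7 CPM with mebendazole, and rose 3.01-fold (1.59, SE 0.13, adjusted p = 4.3e-28). AMOTL2, an angiomotin that also binds YAP, stood at 0.986, 1.69 and 1.29 CPM and at 2.98, 4.68 and 4.17 CPM. Its ratio was 2.97 (2.20 to 4.05) on 62 and 156 reads (log2 fold change 1.57, SE 0.06, adjusted p = 1.3e-09), and for both genes the lowest mebendazole library exceeded the highest DMSO library.

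**Figure D2:**
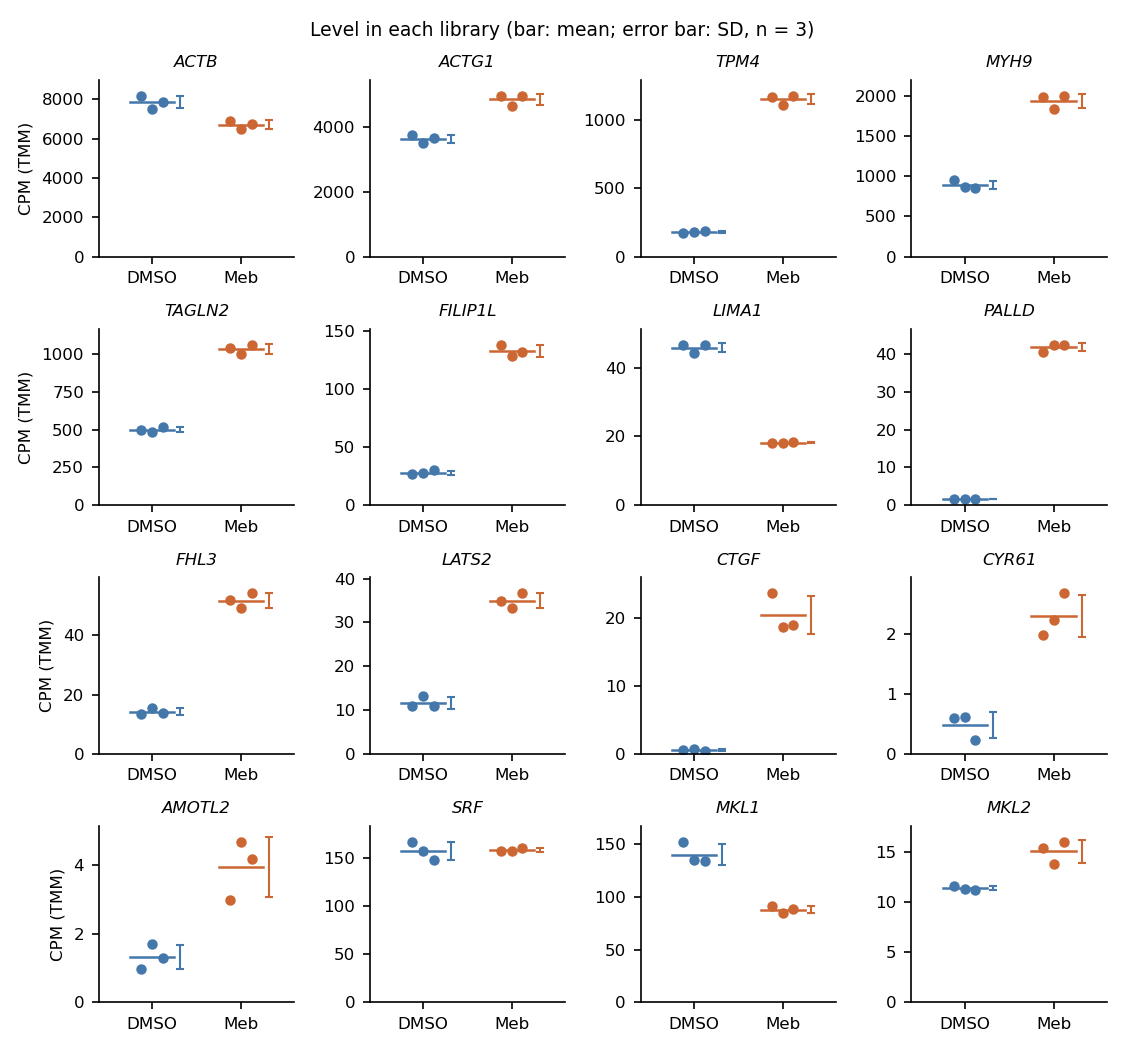
Each panel gives 1 gene's level in CPM on a linear axis from 0, with a point per library, a bar at the mean and an error bar of 1 SD (n = 3). The 2 groups are apart in every panel but that of SRF, and the LIMA1, ACTB and MKL1 levels are lower with mebendazole (Meb).

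The 2 cytoplasmic actins moved in opposite directions. ACTB, beta-actin, was at 8160, 7521 and 7883 CPM in DMSO and at 6898, 6464 and 6760 CPM with mebendazole. It fell by 0.23 on the log2 scale (SE 0.01, adjusted p = 5.4e-12). ACTG1, gamma-actin, was at 3746, 3508 and 3668 CPM in DMSO and at 4965, 4655 and 4960 CPM with mebendazole, a rise of 1.33-fold (0.42, SE 0.01, adjusted p = 1.9e-22). In neither gene did the groups overlap. The ratio of ACTB to ACTG1 reads was 2.18, 2.14 and 2.15 in DMSO and 1.39, 1.39 and 1.36 with mebendazole. Together the 2 genes took 1.21% to 1.29% of reads in DMSO and 1.03% to 1.08% with mebendazole. ACTA2, smooth muscle actin, had 10 reads in DMSO and 8 with mebendazole and was not tested. Reads of actin genes may be shared with copies, since 10.3% of the 50-base windows of the ACTB transcript also occur in transcripts of other genes, and 3.58% of those of ACTG1.

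Genes of filament turnover changed less than 2-fold, with 5 of 9 called higher and 3 lower, beside 40.6% and 41.7% of all genes tested. The coronins, which help cofilin and the Arp2/3 complex, split. CORO1A, the coronin of blood cells, was at 442, 432 and 454 CPM in DMSO and at 255, 249 and 256 CPM with mebendazole (log2 fold change -0.80, SE 0.01, adjusted p = 1.0e-32). CORO1C, a widely expressed coronin, went from 188, 190 and 186 CPM to 347, 344 and 348 CPM (0.88, SE 0.01, adjusted p = 4.4e-34). CORO1A thus held more reads in every DMSO library and CORO1C in every mebendazole library. The thymosins, small peptides that bind actin monomers, split too, TMSB4X falling by 0.27 and TMSB10 rising by 0.63 on the log2 scale. WDR1, which speeds cofilin's disassembly of filaments, and CAPZA1, a capping protein subunit, rose by 0.49 and 0.35. CAPZB, the other capping subunit, stood at 319 ± 7.43 and 322 ± 9.52 CPM (SD, n = 3) and did not pass (adjusted p = 0.72), though with library totals it was called lower (-0.23). Cofilin and profilin moved least among those called. The log2 fold change of CFL1 was 0.09 (adjusted p = 0.0069) with overlapping groups, and it reversed to -0.16 with library totals. PFN1 was at -0.09 (adjusted p = 0.0052), and the call was lost without pair 3 (-0.08, adjusted p = 0.13).

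Among genes of crosslinking and adhesion, 7 of 9 were called higher and 2 lower, beside 40.6% and 41.7% of all genes tested. PALLD, which encodes palladin, a scaffold of stress fibres that binds alpha-actinin, was at 1.71, 1.76 and 1.65 CPM in DMSO and at 40.6, 42.6 and 42.5 CPM with mebendazole. Its 80 reads in DMSO and 1668 with mebendazole gave a ratio of 24.6 (95% counting interval 19.6 to 31.2), and its log2 fold change was 4.61 (SE 0.04, adjusted p = 4.6e-46). Libraries within each group differed little beside that gap. FILIP1L, a protein related to a filamin-binding partner, stood at 26.9, 27.3 and 29.98 CPM in DMSO and at 138, 129 and 132 CPM with mebendazole. FILIP1L rose 4.73-fold (2.24, SE 0.06, adjusted p = 4.2e-47). LIMA1, whose product EPLIN bundles and stabilises filaments, went the other way, from 46.7, 44.4 and 46.6 CPM to 18.1, 18.1 and 18.5 CPM. It was the 1 set member that fell at least 2-fold (log2 fold change -1.33, SE 0.02, adjusted p = 3.7e-28).

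The alpha-actinins exchanged places. ACTN1 was at 459, 418 and 426 CPM in DMSO and at 245, 229 and 251 CPM with mebendazole (log2 fold change -0.85, SE 0.04, adjusted p = 3.0e-33). ACTN4 was at 300, 272 and 275 CPM in DMSO and at 490, 483 and 495 CPM with mebendazole (0.80, SE 0.04, adjusted p = 2.8e-32). The ratio of ACTN1 to ACTN4 reads was 1.53, 1.54 and 1.55 in DMSO and 0.499, 0.474 and 0.506 with mebendazole. Zyxin and vinculin mark adhesions under tension, and both genes rose, ZYX by 0.74 and VCL by 0.65 on the log2 scale. FLNA, filamin A, rose by 0.84 from 17.1 ± 0.90 CPM. TLN1, talin, which links integrins to actin, was called at 0.09 (adjusted p = 0.011) with overlapping groups, lost the call without pair 3 (0.04, adjusted p = 0.48) and reversed to -0.15 with library totals.

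Of 15 genes for tropomyosins, myosins, calponins and transgelins, 12 were called higher and 3 lower, beside 40.6% and 41.7% of all genes tested. The 12 include CNN1, which passed the filter on low counts only through its mebendazole libraries. TPM4, a tropomyosin of non-muscle filaments, was at 175, 179 and 188 CPM in DMSO and at 1167, 1108 and 1174 CPM with mebendazole (log2 fold change 2.67, SE 0.03, adjusted p = 2.0e-62). TPM3 rose by 0.37 and TPM2 by 0.36, and TPM1 fell by 0.32 on the log2 scale. Of all tropomyosin reads, TPM4 took 13.1%, 13.3% and 13.6% in the DMSO libraries and 43.0%, 42.9% and 44.3% in the mebendazole libraries. The share of TPM3 went from 74.9% ± 0.50 to 49.5% ± 0.63 (SD, n = 3). Groups did not overlap for either share. Of the 50-base windows of the TPM4 transcript, 23.1% also occur in other transcripts, which limits how exactly its reads can be assigned, and 19.3% of its exon bases lie opposite another annotated gene in GENCODE 29.

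**Figure D3:**
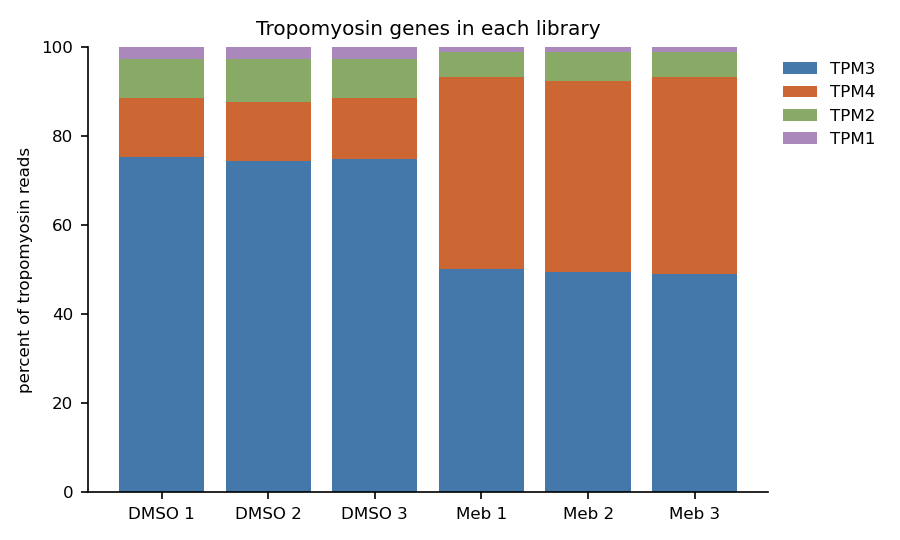
Bars give, for each of the 6 libraries, the percent of tropomyosin reads that fell on TPM3, TPM4, TPM2 and TPM1. TPM4 takes 13.1% to 13.6% in the DMSO libraries and 42.9% to 44.3% in the mebendazole libraries (Meb).

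The myosin II genes rose with 1 exception. MYH9, the heavy chain of non-muscle myosin IIA, was at 953, 868 and 860 CPM in DMSO and at 1987, 1844 and 2004 CPM with mebendazole (log2 fold change 1.12, SE 0.05, adjusted p = 4.6e-43). MYH10, the IIB heavy chain, rose by 0.85 from 6.56 ± 0.89 CPM. The light chain genes MYL12A, MYL6 and MYL12B rose by 0.63, 0.61 and 0.31. MYL9, another regulatory light chain and an SRF target in contractile cells, fell by 0.20 (SE 0.01, adjusted p = 1.7e-04), and its groups did not overlap. MYL12A and MYL12B share 9.41% and 9.42% of their 50-base windows with other genes, including each other.

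Transgelins and calponins bind actin filaments alongside tropomyosin. TAGLN2, the form of non-muscle cells, was at 494, 483 and 517 CPM in DMSO and at 1040, 998 and 1061 CPM with mebendazole (log2 fold change 1.05, SE 0.01, adjusted p = 2.2e-41). TAGLN, the smooth muscle form and a classic SRF target, stood at 6.65 ± 0.70 and 8.23 ± 1.19 CPM (SD, n = 3) with overlapping groups. It was called at 0.30 (adjusted p = 0.021 in edgeR), but not by DESeq2 (adjusted p = 0.17), with library totals (0.06, adjusted p = 0.66), without pair 2 (0.23, adjusted p = 0.17) or without pair 3 (0.31, adjusted p = 0.057). The calponins differed among themselves. CNN1, the smooth muscle form, had 0 reads in every DMSO library and 38, 43 and 42 with mebendazole, which is at least 48.3-fold higher against a floor of 3 counts over the DMSO group. Its level with mebendazole was still low, at 3.10 ± 0.35 CPM. CNN2 stood at 281, 276 and 272 CPM in DMSO and at 150, 143 and 141 CPM with mebendazole. CNN2 fell by 0.93 on the log2 scale (SE 0.01, adjusted p = 3.7e-34). CNN3 rose by 0.93 from 7.81 ± 0.76 CPM. Of the muscle-associated genes read beside CNN1, LMOD1, which was in the smooth muscle marker list, rose from 14 to 63 reads. In DMSO and with mebendazole, MYH11 had 9 and 26 reads, DES 1 and 0, ACTG2 4 and 4, and ACTA2 10 and 8. Their part in the result was not tested.

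Exons of other genes on the opposite strand also cover part of several set members, 12.6% of ACTN4, 15.1% of CNN2, 17.6% of CORO1A, 23.5% of TPM1 and 38.3% of ACTA2. For TAGLN the share was 18.4%, opposite PCSK7, which had a mean of 47.8 CPM and did not pass (log2 fold change -0.04, adjusted p = 0.52). For VCL it was 16.6%, opposite AP3M1 (log2 fold change -0.06, adjusted p = 0.32). Since the TruSeq kit used does not mark strand, reads there cannot be told apart.

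The ratio of reads between related genes within a library needs no scaling between libraries, and 12 such ratios were compared. In 11 of them the DMSO and mebendazole libraries did not overlap, with an exact two-sided permutation p of 0.10, the smallest that 3 against 3 allows (Benjamini-Hochberg adjusted p = 0.11 over the 12). Of all single genes tested, 82.4% did not overlap either, and the share for ratios of other gene pairs was not measured. The 11 are therefore not read as particular to related genes. The exception among the 12 ratios, with the pairing left out, was MYH9 to MYH10, whose ratio moved by 0.27 on the log2 scale with overlapping libraries (exact permutation p = 0.20). Compared within pairs, that ratio rose in all 3 pairs as well, and each of the 12 ratios had an exact sign-flip permutation p of 0.25, the smallest that 3 pairs allow. The widest move was that of TPM4 to TPM3, by 2.30, from ratios of 0.174, 0.178 and 0.182 to ratios of 0.856, 0.869 and 0.905. The ratio of CORO1C to CORO1A moved by 1.69, that of CNN2 to CNN3 by -1.87, ACTN1 to ACTN4 by -1.64, FHL2 to FHL3 by -1.53 and MKL1 to MKL2 by -1.07.

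**Figure D4:**
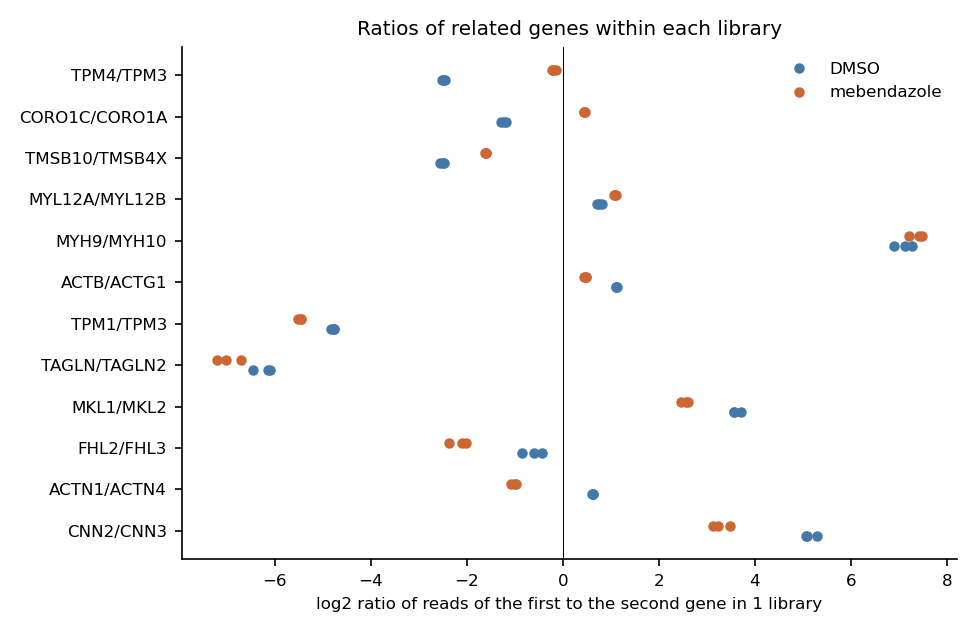
Each row is a pair of related genes, and the points are the log2 ratio of their reads in each of the 3 DMSO and 3 mebendazole libraries. Only the MYH9 to MYH10 row shows overlapping groups among these 12.

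Scaled per kilobase of the longest coding transcript (GENCODE 29), the order of levels shifted in the middle of the set. ACTB and ACTG1 ranked 1 and 2 in both groups, at 4089 and 1614 CPM per kilobase in DMSO. TPM4 moved from rank 21 to rank 9 (67.8 to 431 CPM per kilobase), MYH9 from 18 to 12 and TAGLN2 from 9 to 4. CORO1A moved from 11 to 18 and CNN2 from 17 to 22. Neighbouring ranks can lie within the spread of the libraries, as for TPM3 and TPM4 with mebendazole (417 and 431 CPM per kilobase).

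Other genes of the pathway were read from 6 lists with no gene of the set in them, 145 entries of which 137 could be tested. Of these, 82 were called higher and 38 lower, or 87.6% called, beside 82.3% of all genes tested (40.6% higher, 41.7% lower). The same shares of all genes stand beside the counts of each list below. Of the 6 lists, 5 are described here.

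Nucleation genes showed no common direction. Of 24 tested genes of the Arp2/3, WAVE and WASP complexes, which start branched filaments, 12 were higher and 10 lower (median 0.02). Among the WAVE subunits, NCKAP1L of blood cells fell by 1.08 and CYFIP2 by 2.07 on the log2 scale, and the Arp2/3 subunit ARPC3 fell by 0.28. CYFIP2 was scarce, with 351 reads in DMSO and 71 with mebendazole. Its relative CYFIP1, named here for that reason, had 4452 and 5074 reads and rose by 0.43 on the log2 scale (adjusted p = 2.1e-14 in edgeR). NCKAP1, the widely expressed relative of NCKAP1L, rose by 2.08 from 1.85 ± 0.63 CPM, WASF2 by 0.66 and ARPC5L by 0.54. Of 24 genes of capping, severing and bundling, 15 were higher and 6 lower (median 0.41). EZR, ezrin, which ties actin to the membrane, rose 5.28-fold, and the spectrin gene SPTAN1 4.21-fold. LCP1, the plastin of blood cells, fell by 0.86 on the log2 scale, SPTBN1, a beta spectrin, by 0.77, and GSN, gelsolin, by 0.33.

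Of 22 genes of focal adhesion and integrin linkage, 13 were higher and 7 lower (median 0.42). FERMT2, kindlin-2 of adherent cells, rose from 1.52 ± 0.27 to 22.0 ± 0.98 CPM, VIM, the intermediate filament gene vimentin, 7.27-fold, and TES, a zyxin partner, 2.55-fold. TNS3, a tensin, fell by 1.96 on the log2 scale, the kinase gene PTK2B by 0.89 and EVL, an Ena/VASP protein of blood cells, by 1.01. Relatives of these genes on the same list, named here beside them, did not all follow such labels. FERMT3 stood at 298 ± 9.54 and 318 ± 7.17 CPM (SD, n = 3), far above FERMT2 in both groups, and was called higher at 0.09. ENAH fell by 0.93 like EVL, and VASP rose by 0.75. Whether genes of blood cells fell as a group was not tested. Of 24 genes on a further list of SRF and MRTF targets and partners, 17 could be tested, of which 13 were higher and 3 lower (median 1.23). THBS1 (9.48), FOSB (5.74) and MCL1 (2.32) had the smallest p among the rises on the log2 scale. Which group carried a gene through the filter on low counts was checked for set members only, not for these list genes. Some of them may therefore have had to be higher, so the counts and medians of the lists are no support for a common rise. The size of a rise such as that of THBS1 can depend on very few DMSO reads, and its reads are not given here. EGR1, an SRF target reached through the ternary complex factors, fell by 1.35, FHL1 by 0.53 and SRFBP1, which encodes an SRF-binding protein, by 0.48.

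The Hippo list had the largest share of genes that did not pass, 8 of 25, beside 2399 of all 13591 genes tested. Of its genes, 13 were higher and 4 lower (median 0.33). TEAD1, a DNA-binding partner of YAP, rose from 29.1 ± 1.04 to 198 ± 5.54 CPM, the phosphatase gene PTPN14 7.67-fold and STK4, the Hippo kinase MST1, 2.65-fold. AXL, a receptor and YAP target in other cells, fell by 1.64 on the log2 scale, WWC1 by 1.68 and TEAD4 by 1.02. YAP1 and WWTR1, named here because they encode the coactivators YAP and TAZ, were both scarce. YAP1 had 59 reads in DMSO and 233 with mebendazole, or 1.27 ± 0.43 and 5.87 ± 0.83 CPM (adjusted p = 5.0e-16, log2 fold change 2.21), and WWTR1 stood at 2.46 ± 0.70 and 3.08 ± 0.28 CPM (adjusted p = 0.12).

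**Figure D5:**
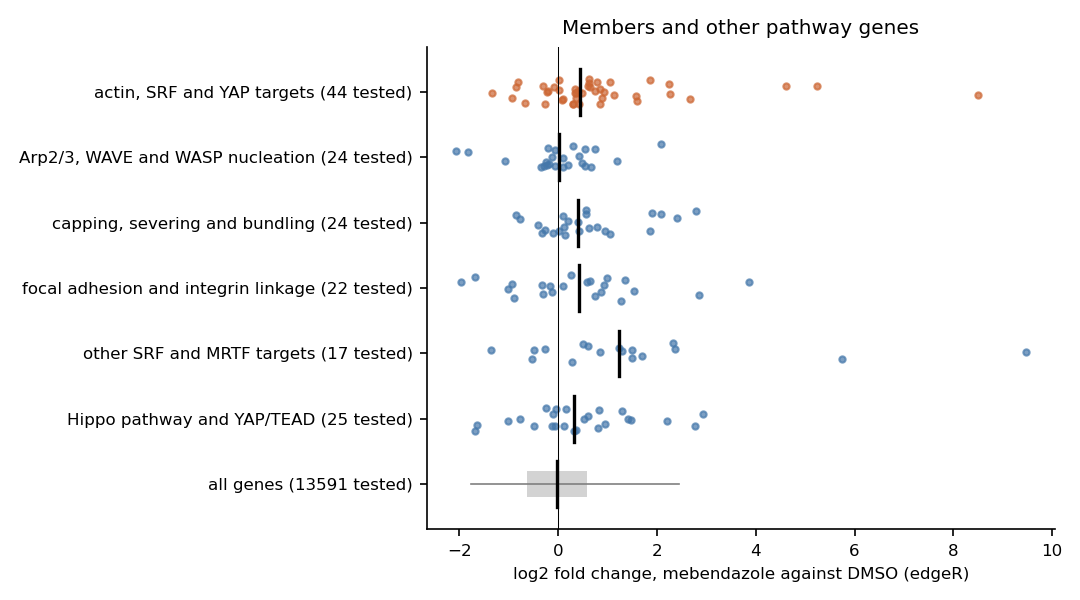
Points are log2 fold changes of the tested genes of the set and of 5 pathway lists, with a black bar at the median, and the grey box and line give the middle 50% and 90% of all 13591 genes. The median of the set lies at 0.45, that of the nucleation list at 0.02 and that of all genes at -0.03.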

How the data were processed

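RNA was sequenced in 6 THP-1 libraries, 3 per group. The authors deposited 1 table of raw counts by gene symbol, and 0 of its columns belonged to no sample. STAR, bedtools, HTSeq, DESeq2 and hg19 are named, per the submitters' processing notes, with annotation and strand setting not given in the sources used here. For testing, counts went into edgeR 4.0.16 under R 4.3.3 (filterByExpr, TMM, quasi-likelihood F test, two-sided, pair as a model term because the series states pairs, Benjamini-Hochberg over 13591 genes). The fit was tested on simulated data. The labels do not say whether pairs were separate cultures, so p-values reflect only how far these samples spread, and the spread may be technical. It is mostly pooled over genes (prior of 61 degrees of freedom against 2 residual). Each SE is that of the 3 within-pair log2 differences (0.5 read added). Levels are relative to each library's own RNA. RefSeq promoters and GENCODE 29 lengths are GRCh38, matched by symbol or older name.

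Members and lists were chosen with earlier results of these data known. Named with values per library were the actins, SRF, MKL1, MKL2, the YAP targets and members changed at least 2-fold at a mean CPM of 10 or more, with others added after their values were seen, and, of each pathway list, the 3 called genes with the smallest p in each direction. One of these lists and 1 gene of another are not reported here. Alternatives were library totals, DESeq2 1.42.0, other count filters, no pair term, a test against a 1.5-fold change, and leaving out each pair.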

Additional observations from a re-analysis of the deposited data

How the results depend on the processing

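The counts of called set members (42), of those higher (32) and lower (10), of set members changed at least 2-fold (12), of pathway genes called (120) and of all genes called (11192) stayed within 1.5 times under every alternative but the test against a 1.5-fold change, which asks for a larger change and left 22, 17, 5, 69 and 5774 where it applied. With library totals SRF (-0.23), CAPZB (-0.23), CFL1 (-0.16) and TLN1 (-0.15) reversed, by the shift of the median gene that this scaling gives, and of called genes 36.4% were higher against 49.3%. With no replicate block, 40 set members and 11118 genes were called, CFL1 (adjusted p = 0.054) and TLN1 (adjusted p = 0.058) losing their calls. For the 3 pairs, the correlation between the deviations of the partners was -0.01, 0.12 and 0.06, and pairs 1 and 3 each matched the other's number best. Under a sign-flip test within pairs (replicate block) no ratio could go below an exact p of 0.25. Without 1 pair, 39 to 42 set members, 30 to 32 higher, 9 to 10 lower, 12 to 13 at least 2-fold, 113 to 120 pathway genes and 10572 to 10885 genes were called. Of the 44 tested set members, 22 had the same direction and call wherever an alternative could test them. Other losses of a call among set members, beside those under the 1.5-fold test, are given with each gene, apart from MYL12B with library totals (0.06) and PFN1 with DESeq2 (adjusted p = 0.084). CFL1 (adjusted p = 0.12) and TLN1 (adjusted p = 0.12) also lost their calls with a filter at a mean of 10 CPM. The counting intervals of CTGF, CYR61 and AMOTL2 give what the depth allows for such low genes.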

Other observations

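CAP1, which encodes a cyclase-associated protein that recycles actin monomers and was on the list of capping and severing genes, was singled out after its values were seen. It stood at 10422 ± 220 CPM in DMSO and 9738 ± 319 CPM with mebendazole (SD, n = 3), with a log2 fold change of -0.10 (adjusted p = 0.00051 in edgeR). Per kilobase of the longest coding transcript this was 3357 and 3136 CPM, close under ACTB at 4089 and 3492 CPM. Windows shared with other transcripts and exons on the opposite strand were checked for set members only, not for CAP1. The call of CAP1 was lost without pair 2 (-0.07, adjusted p = 0.098) and without pair 3 (-0.09, adjusted p = 0.053).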
